A study of Homo sapiens with 18 samples.

Results

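The genes described here are 40 transcripts of the chromatin machinery, 24 that encode subunits of the polycomb repressive complexes and 16 that encode ATPases of the CHD, ISWI, INO80 and related SNF2 families. They were chosen by symbol, not by a measured value. All 40 were found among the 43236 gene symbols of the table, and all 40 passed the filter on low counts that left 16291 genes for testing. RNA came from NCI-H1693, a human cell line established from a lung tumour of the non-small cell kind and SMARCA4-deficient according to the labels. The groups were 50 nM PRT3789 for 6, 48 or 72 h and DMSO, the solvent control, for the same times, with 3 libraries in each of the 6 groups. PRT3789 is a selective degrader of the SMARCA2 protein, an ATPase of the SWI/SNF complexes, and all groups share the SMARCA4-deficient background of this one line. The labels do not say whether the libraries of a group came from separate cultures, so p-values measure only the spread between these libraries, which may be technical.

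Polycomb proteins keep developmental genes silent. Polycomb repressive complex 2 (PRC2) methylates lysine 27 of histone H3 through EZH2 or EZH1, and polycomb repressive complex 1 (PRC1) places ubiquitin on histone H2A and compacts chromatin. SWI/SNF remodellers are the classic opponents of polycomb, first placed in this relation in flies, and cancers that have lost SWI/SNF subunits have been studied for their need of EZH2. The CHD, ISWI and INO80 families use the same kind of ATP-driven motor as SMARCA2 to slide, space, evict or exchange nucleosomes.

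Library totals ran from 23154484 to 31094797 counts. SMARCA2 transcript, which does not report on a loss of protein, had a log2 fold change (log2FC, PRT3789 over DMSO) of 0.04 ± 0.10 (SE) at 6 h and -0.19 ± 0.10 at 48 h, neither called, and fell by 0.44 ± 0.10 at 72 h (adjusted p = 0.00108). SMARCA4 transcript lay between 6.39 and 11.9 CPM (counts scaled to a common library total) in all 18 libraries. The line's epithelial markers were present: their summed level was 7840 to 9348 CPM in PRT3789 and 8537 to 10401 CPM in DMSO at 6 h, 5354 to 5539 against 11203 to 11818 CPM at 48 h, and 4663 to 4940 against 10114 to 10832 CPM at 72 h. Of 5 lung lineage markers 3 stayed under 1 CPM in every library and SFTPC was at 0, as was the red blood cell marker HBB. Libraries of the same group were least alike at 6 h. Over the 40 members, the median SD between libraries, in log2 CPM, was 0.164 for PRT3789 and 0.188 for DMSO at 6 h. It was 0.0615 for PRT3789 and 0.139 for DMSO at 48 h, and 0.0699 and 0.0710 in that order at 72 h. Part of this spread followed transcript length: across 9982 genes, the Spearman correlation of length with a library's deviation from its time's mean was 0.416, 0.613 and -0.633 for PRT3789 replicates 1 to 3 of 6 h and 0.634, -0.492 and -0.606 for their DMSO counterparts. It was 0.331, 0.202 and 0.332 in PRT3789 and 0.0059, -0.427 and -0.328 in DMSO at 48 h, and between -0.178 and 0.208 at 72 h. The members are long, with a median of 4850 bp against 3165 bp over the tested genes. Values with the trend removed are therefore given beside most members whose calls it moves. For CBX6 at 6 h, CBX8 at 48 h and PCGF3 in the change from 6 to 48 h, only the moved call is given. At 72 h the log2FC of the members named below moved by little and their adjusted p by more.

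At 6 h, no member passed the test. A gene was called when the Benjamini-Hochberg adjusted p of edgeR's quasi-likelihood test, taken over all tested genes, was under 0.05, and 4.33% of all genes were called at 6 h (1.28% higher and 3.04% lower). An unadjusted p under 0.05 was reached by 5 of the 40 members, beside 2365 of the 16291 tested genes. DESeq2 and limma-voom also called 0 members. CBX8 was called with scaling by total counts. CBX6 was called with the length trend removed, but not once each time was fitted apart as well. The members' log2FC ran from -0.24 to 0.39, with a median of 0.07 against -0.01 over all genes. CBX7, a chromobox reader of methylated H3 lysine 27, had the largest log2FC, 0.39 ± 0.13 (adjusted p = 0.13), with 6.79 to 7.34 CPM in PRT3789 and 4.48 to 6.01 CPM in DMSO. The PRT3789 and DMSO libraries did not overlap for 5 members above DMSO and 1 below it, where 6.36% and 8.35% of all genes lay apart in those directions. A single member was called when 1 of 4 of the 6 h libraries was left out: CHD8 without DMSO replicate 1, EZH1 without DMSO replicate 2, CBX8 without DMSO replicate 3 and CBX6 without PRT3789 replicate 3.

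At 48 h, 13 members rose and 4 fell, which is 42.5% of the 40, beside 42.1% of all genes (21.2% higher and 20.9% lower). At 72 h, 6 rose and 7 fell, 32.5% of the members beside 43.4% of all genes (21.3% higher and 22.0% lower). The PRT3789 and DMSO libraries did not overlap for 22 members above DMSO and 6 below it at 48 h, where 28.7% and 27.5% of all genes lay apart, and for 12 above and 11 below it at 72 h, beside 31.2% and 30.7% of all genes. In this fit the share of members that changed was close to the background at 48 h and below it at 72 h. With the length trend removed, the shares were 47.5% of members and 46.7% of all genes at 48 h, and 52.5% and 49.8% at 72 h, so the members were not below the background at 72 h in that fit. With each time fitted apart, they were 57.5% and 49.5% at 48 h, and 57.5% and 58.6% at 72 h. The median log2FC of the members was 0.20 at 48 h and -0.04 at 72 h, where all genes had 0.01 at both times. The members' median with the length trend removed was 0.09 at 48 h and -0.04 at 72 h. Without PRT3789 replicate 1 of 48 h 8 members rose at 48 h, and likewise 8 without PRT3789 replicate 3. In a fit without the 6 h libraries, whose wider spread enters every test, 20 rose and 6 fell at 48 h and 10 rose and 10 fell at 72 h, 65% and 50% of the members beside 52.4% and 52.6% of all genes. Levels of the members spanned a wide range in DMSO at 48 h, where CHD4, SMARCA1 and RING1 had the highest levels per length, 50.3, 41.0 and 36.7 CPM per kb, and CBX7 the lowest, 1.45 CPM per kb. The changes were small. No called member reached a 2-fold change, which 11.1% of all genes passed at 48 h and 12.8% at 72 h. Of the members, 4 were called with at least 1.5-fold at 48 h and 3 at 72 h, 10.0% and 7.5% of them, beside 21.4% and 23.6% of all genes. The members that changed most were EZH1, BMI1, CBX6 and SRCAP upwards and PHF19, HELLS, CHD9 and EZH2 downwards.

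**Figure D1:**
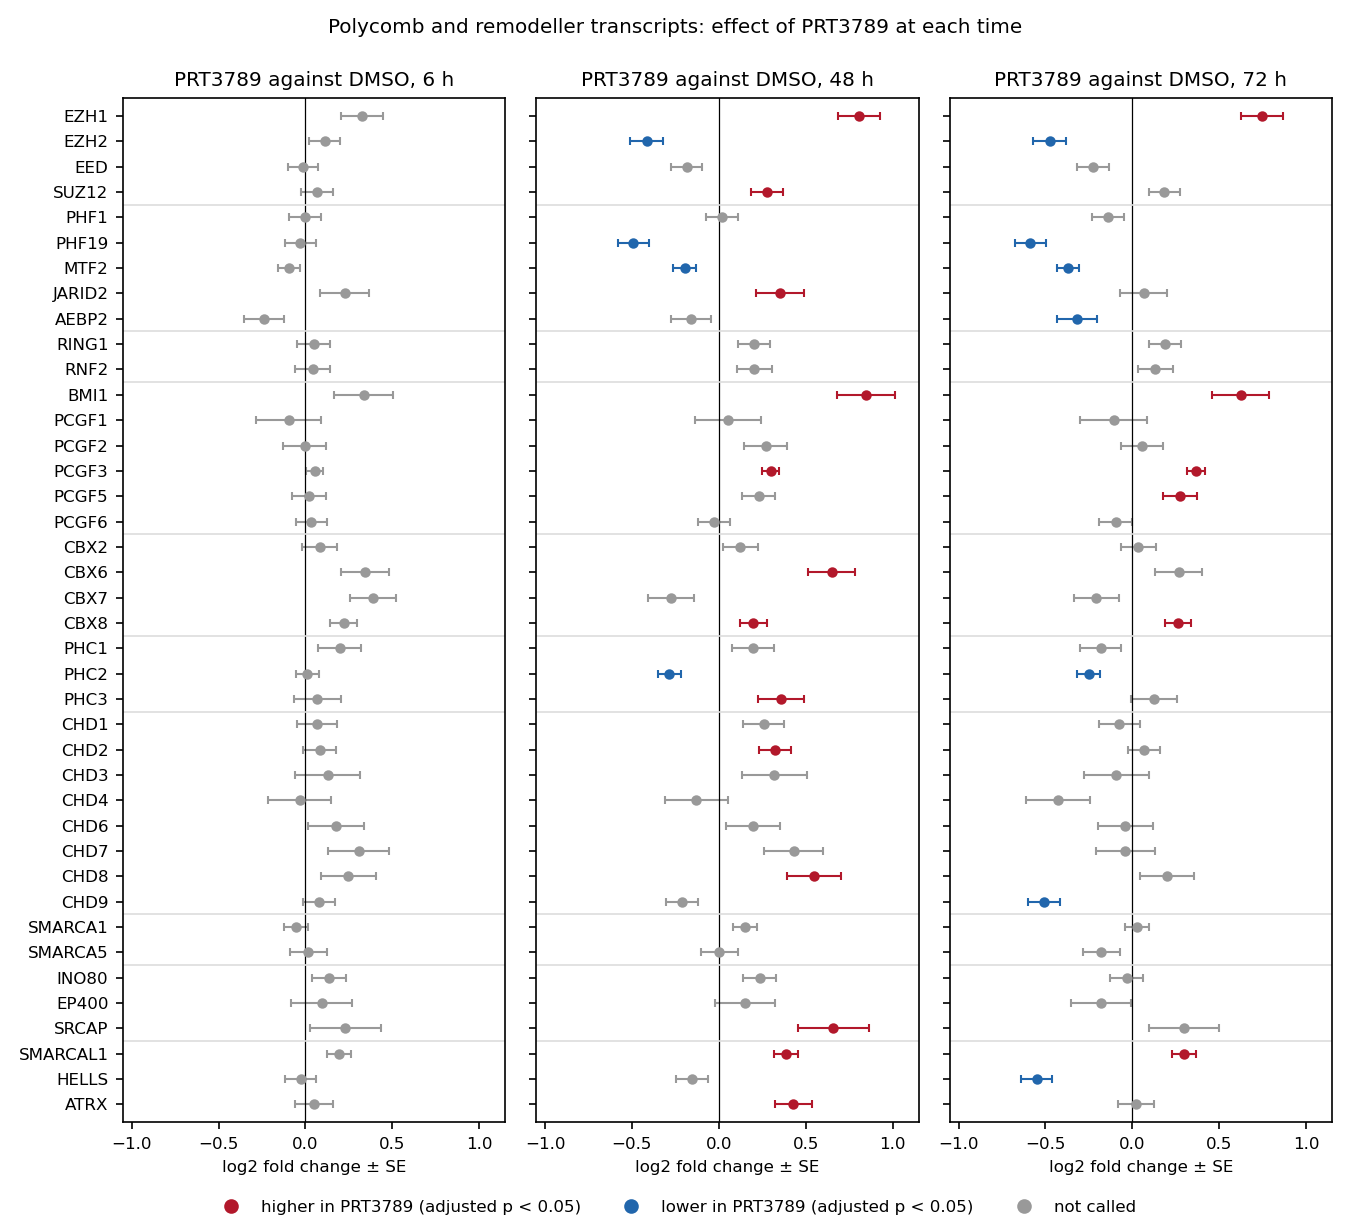
Log2FC of PRT3789 over DMSO for the 40 members at 6, 48 and 72 h, ordered by complex, with the SE from edgeR as bars. Red points were called higher, blue points were called lower and grey points were not called. No member is called at 6 h, and EZH1 and BMI1 lie farthest above 0 at 48 and 72 h.

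The enzymes of PRC2 moved in opposite directions. EZH1 (chr17:42700275-42745040, GRCh38.p14, as for the positions that follow) is the methyltransferase usually found in resting and differentiated cells. In PRT3789 it had 16.3, 16.1 and 18.2 CPM at 48 h and 15.9, 17.8 and 19.2 CPM at 72 h, against 8.50, 10.8 and 9.59 CPM and 9.61, 10.5 and 11.4 CPM in DMSO. Every PRT3789 library lay above every DMSO library at both times, and already at 6 h, where the PRT3789 libraries had 12.5, 13.2 and 12.3 CPM and the DMSO libraries 9.04, 12.2 and 8.89 CPM. Its log2FC was 0.81 ± 0.12 at 48 h (1.75-fold, adjusted p = 3.56e-05) and 0.75 ± 0.12 at 72 h (1.68-fold, adjusted p = 6.59e-05), against an uncalled 0.33 at 6 h (adjusted p = 0.189). EZH2 (chr7:148807383-148884291), the paralogue that leads in dividing cells, had 15.7, 18.6 and 16.9 CPM in PRT3789 and 20.7, 23.5 and 23.9 CPM in DMSO at 48 h. At 72 h it had 16.6, 16.6 and 15.3 CPM in PRT3789 and 22.8, 21.9 and 22.7 CPM in DMSO. The groups lay apart at both times with PRT3789 lower, and EZH2 fell by 0.41 ± 0.09 at 48 h (adjusted p = 0.00182) and by 0.48 ± 0.09 at 72 h (adjusted p = 0.000496). At 6 h the libraries overlapped, with 33.3, 37.4 and 37.7 CPM in PRT3789 and 29.0, 35.2 and 36.2 CPM in DMSO.

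The balance of the paralogues shifted with these changes. Of the counts on EZH1 and EZH2 together, EZH1 held 49.7 ± 2.94% in PRT3789 and 29.7 ± 1.48% in DMSO at 48 h (SD, n = 3 each), and 52.1 ± 3.38% and 31.8 ± 1.96% at 72 h. At 6 h it held 25.9 ± 1.33% in PRT3789 and 23.1 ± 3.09% in DMSO. Per kb of transcript, where levels of different genes can be compared, there were 56.9 EZH1 for every 100 EZH2 in PRT3789 and 24.2 in DMSO at 48 h, so EZH2 was still the more abundant transcript in both groups. This share restates the separate tests of the genes above and was given no test of its own.

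The remaining core subunits moved less. SUZ12 (chr17:31937007-32001038), the scaffold of PRC2, had 48.8, 48.0 and 51.9 CPM in PRT3789 and 41.9, 37.1 and 43.6 CPM in DMSO at 48 h, and 55.1, 54.9 and 49.3 CPM against 48.4, 46.1 and 45.6 CPM at 72 h. The groups lay apart at both times with PRT3789 higher. At 6 h they overlapped, with 59.4, 59.1 and 49.7 CPM in PRT3789 and 60.5, 48.7 and 51.5 CPM in DMSO. SUZ12 rose by a log2FC of 0.28 ± 0.09 at 48 h (adjusted p = 0.0209), a call lost without DMSO replicate 2, PRT3789 replicate 1 or PRT3789 replicate 3 of 48 h, and had 0.18 at 72 h (adjusted p = 0.112), called with the length trend removed (0.18, adjusted p = 0.028). EED (chr11:86244753-86287615), which reads trimethylated H3 lysine 27 and stimulates the enzyme, had 31.7, 34.3 and 31.9 CPM in PRT3789 and 35.9, 36.8 and 38.5 CPM in DMSO at 48 h, and 31.1, 30.8 and 29.6 CPM against 37.4, 36.6 and 33.0 CPM at 72 h. Its groups lay apart with PRT3789 lower at 48 and 72 h, but EED was not called: log2FC -0.19 ± 0.09 (adjusted p = 0.11) and -0.22 ± 0.09 (adjusted p = 0.0537). It was called at 72 h under 13 of 30 alternatives, DESeq2 and removal of the length trend among them (-0.24, adjusted p = 0.0041). At 6 h it had 64.5, 57.8 and 72.4 CPM in PRT3789 and 57.7, 66.5 and 72.5 CPM in DMSO, which overlapped.

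Accessory subunits steer PRC2 to its targets. PHF19 (chr9:120855651-120904128), one of the polycomb-like proteins with a Tudor domain, had 25.3, 24.6 and 25.3 CPM in PRT3789 and 34.7, 35.2 and 35.9 CPM in DMSO at 48 h. At 72 h it had 26.0, 21.6 and 26.3 CPM in PRT3789 and 37.4, 34.4 and 39.1 CPM in DMSO, while at 6 h the 47.9 to 50.6 CPM of PRT3789 lay within the 43.0 to 54.6 CPM of DMSO. PHF19 fell by 0.49 ± 0.09 at 48 h (adjusted p = 0.000262) and by 0.59 ± 0.09 at 72 h (adjusted p = 3.79e-05). Its relative MTF2 fell by 0.20 ± 0.06 at 48 h (adjusted p = 0.0203) and by 0.37 ± 0.06 at 72 h (adjusted p = 0.000151). The 48 h call was lost without DMSO replicate 3 of 48 h, with scaling by total counts, and without the filter on low counts. AEBP2, a DNA-binding cofactor of the PRC2.2 form, fell by 0.32 ± 0.11 at 72 h (adjusted p = 0.032). That call was lost in the absence of any 1 of 5 of the 6 libraries of that time, PRT3789 replicate 2 being the exception. It was lost with scaling by total counts as well. AEBP2 was also called at 48 h once the length trend was removed, at -0.28 (adjusted p = 0.0051), against -0.16 as measured. JARID2, which also belongs to PRC2.2, rose by 0.35 ± 0.14 at 48 h at an adjusted p of 0.0479 and lost that call under 18 of 30 alternatives, including DESeq2.

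Genes of dividing cells fell in the same libraries. Of 23 proliferation genes, 0 rose and 17 fell at 48 h and 0 rose and 21 fell at 72 h, with median log2FC of -0.48 and -0.68. The shares that fell were 73.9% and 91.3%, beside 20.9% and 22.0% of all genes. In this list CDC20, which activates the anaphase-promoting complex, fell by 0.92 and 0.97, and PLK1, a mitotic kinase, by 0.83 and 1.04 at 48 and 72 h. EZH2, PHF19 and HELLS are also known from proliferating cells, and the part of cell division in their fall was not tested. In bulk RNA, fewer cells of a kind and less RNA per cell cannot be told apart.

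The promoters of the PRC2 enzymes, of PHF19 and of HELLS are shown because the EZH paralogues moved in opposite directions and PHF19 and HELLS fell with EZH2. The windows hold 250 bases before and 50 from the RefSeq start on (GRCh38.p14). Capitals mark the letters TTGGCGC or TTCCCGC on either strand, forms of the site bound by E2F factors, which drive genes of the S phase.
EZH2 promoter, chr7:148884242-148884541 (- strand): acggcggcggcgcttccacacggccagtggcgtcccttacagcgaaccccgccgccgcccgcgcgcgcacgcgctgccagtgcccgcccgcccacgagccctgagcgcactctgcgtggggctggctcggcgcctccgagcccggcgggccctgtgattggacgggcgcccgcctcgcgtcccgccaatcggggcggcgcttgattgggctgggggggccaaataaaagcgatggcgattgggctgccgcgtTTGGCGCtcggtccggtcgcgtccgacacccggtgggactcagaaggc
PHF19 promoter, chr9:120877139-120877438 (- strand): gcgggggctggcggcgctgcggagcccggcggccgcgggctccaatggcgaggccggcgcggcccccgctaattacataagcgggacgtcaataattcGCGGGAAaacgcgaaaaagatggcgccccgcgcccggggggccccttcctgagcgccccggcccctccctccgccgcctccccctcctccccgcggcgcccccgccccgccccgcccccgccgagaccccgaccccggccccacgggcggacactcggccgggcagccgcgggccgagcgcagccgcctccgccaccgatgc
HELLS promoter, chr10:94545538-94545837 (+ strand): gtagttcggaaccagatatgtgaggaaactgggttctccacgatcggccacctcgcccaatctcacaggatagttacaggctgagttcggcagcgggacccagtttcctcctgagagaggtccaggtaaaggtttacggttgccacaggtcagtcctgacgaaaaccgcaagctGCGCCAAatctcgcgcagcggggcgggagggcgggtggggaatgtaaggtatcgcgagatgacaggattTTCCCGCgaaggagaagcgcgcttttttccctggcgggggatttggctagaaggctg
EZH1 promoter, chr17:42744991-42745290 (- strand): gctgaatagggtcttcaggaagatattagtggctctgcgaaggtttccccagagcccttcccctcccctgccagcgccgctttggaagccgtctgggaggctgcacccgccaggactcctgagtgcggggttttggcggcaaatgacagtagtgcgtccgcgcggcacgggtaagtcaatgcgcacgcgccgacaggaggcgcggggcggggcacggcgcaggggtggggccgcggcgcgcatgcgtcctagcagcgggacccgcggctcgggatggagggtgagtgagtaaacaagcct
EZH2 and PHF19 each have a second listed window, without a match, and the window shown was picked because it holds one. The PHF19 window shown belongs to a start inside the annotated gene. The letters began 2 bases from the start of the window's transcript in EZH2, 152 bases before it in PHF19, and 76 and 7 bases before it in HELLS, with no match in the window of EZH1. RefSeq windows were at hand for 35 of the 40 members, and 8 of the 35 (22.9%) held a match, beside 17.1% of the 12540 tested symbols with a window. Among members with a window, the match was present in 4 of 7 that fell at 72 h (EZH2, PHF19, MTF2 and HELLS), in 0 of 5 that rose and in 4 of 23 that were not called. The motifs were chosen with the direction of these genes known, so the split is a description of letters and no test was made.

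In PRC1, the largest change was that of BMI1, a PCGF protein of canonical PRC1 first known as an oncogene that represses the CDKN2A locus. BMI1 (chr10:22321099-22331706) had 44.6, 52.0 and 49.9 CPM in PRT3789 and 24.4, 21.9 and 35.2 CPM in DMSO at 48 h. At 72 h it had 50.1, 61.2 and 50.4 CPM in PRT3789 and 30.8, 32.8 and 41.2 CPM in DMSO, and the groups lay apart at both times. At 6 h the groups overlapped, with 40.01, 35.9 and 27.6 CPM in PRT3789 and 28.5, 24.3 and 29.3 CPM in DMSO. BMI1 rose by 0.85 ± 0.17 at 48 h (1.80-fold, adjusted p = 0.000549) and by 0.62 ± 0.16 at 72 h (1.54-fold, adjusted p = 0.00506). The annotated readthrough COMMD3-BMI1 shares its exons, and counts could be split between them. The readthrough had 12.3 ± 2.80 CPM in PRT3789 and 17.6 ± 1.06 CPM in DMSO at 48 h (mean ± SD). Its log2FC was -0.51 ± 0.57 (adjusted p = 0.503), opposite in sign to that of BMI1. At 72 h it had 7.64 ± 4.22 CPM in PRT3789 and 7.78 ± 6.59 CPM in DMSO, and this wide spread enters the SE of the shared model. No alternative fit changed how counts were split, and the part of the split in the rise of BMI1 was not tested.

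The other PCGF genes, most of which define variant forms of PRC1, moved little or upwards. PCGF3 rose by 0.30 ± 0.05 at 48 h (adjusted p = 0.000123) and by 0.37 ± 0.05 at 72 h (adjusted p = 1.17e-05), to 104 and 107 CPM in PRT3789 against 84.3 and 82.9 CPM in DMSO. PCGF5 was called at 72 h with 0.28 ± 0.10 (adjusted p = 0.0279). That call was lost when any DMSO library of 72 h or PRT3789 replicate 1 or 2 was left out, and without the filter on low counts. PCGF1, PCGF2 and PCGF6 were not called at any time, though PCGF1 had 0.27 at 48 h with the length trend removed and was then called (adjusted p = 0.031), against 0.05 as measured. PCGF2 was called at 48 h in the fit without the 6 h libraries. The RING ubiquitin ligases RING1 and RNF2, the catalytic core of every PRC1, were not called either: at 48 h both had a log2FC of 0.20, with 95% intervals of 0.01 to 0.40 and -0.01 to 0.42. RING1 was called under 6 of 30 alternatives at 48 h and 6 of 30 at 72 h, and with the length trend removed had 0.29 (adjusted p = 0.0024) and 0.18 (adjusted p = 0.04012).

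Of the chromobox proteins, which tether canonical PRC1 to methylated H3 lysine 27, CBX6 (chr22:38861422-38872216) rose at 48 h. It had 113, 103.0 and 107 CPM in PRT3789 and 78.7, 66.1 and 61.3 CPM in DMSO, a log2FC of 0.65 ± 0.14 (1.57-fold, adjusted p = 0.000999). At 72 h the groups still lay apart, with 106, 113 and 111 CPM in PRT3789 and 89.9, 91.1 and 92.8 CPM in DMSO, but the log2FC of 0.27 was not called (adjusted p = 0.123). It was called under 5 of 30 alternatives, at 0.27 with the length trend removed (adjusted p = 0.012). At 6 h they overlapped, with 77.2, 90.5 and 55.1 CPM in PRT3789 and 68.0, 53.1 and 54.3 CPM in DMSO. CBX8 rose by 0.26 ± 0.08 at 72 h (adjusted p = 0.00969), a call lost without the filter on low counts. Its 0.20 ± 0.08 at 48 h (adjusted p = 0.0459) lost the call under 23 of 30 alternatives, removal of the length trend among them. CBX2 was not called at any time. Of the polyhomeotic proteins, which polymerise PRC1, PHC2 fell by 0.28 ± 0.06 at 48 h (adjusted p = 0.00173) and by 0.25 ± 0.06 at 72 h (adjusted p = 0.00393). PHC3, with 31.7 to 37.6 CPM in PRT3789 and 23.8 to 30.3 CPM in DMSO, rose by 0.36 ± 0.13 at 48 h (adjusted p = 0.0373), but its log2FC was 0.09 with the length trend removed, and the call was then lost, as under 12 of 30 alternatives in all. Among these were the fits without DMSO replicate 2 or 3 or PRT3789 replicate 1 or 3 of 48 h, without DMSO replicate 2 of 6 h, and without DMSO replicate 2 or 3 or any PRT3789 library of 72 h. PHC1 was not called in the fit of all libraries, but was at 72 h with each time fitted apart.

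**Figure D2:**
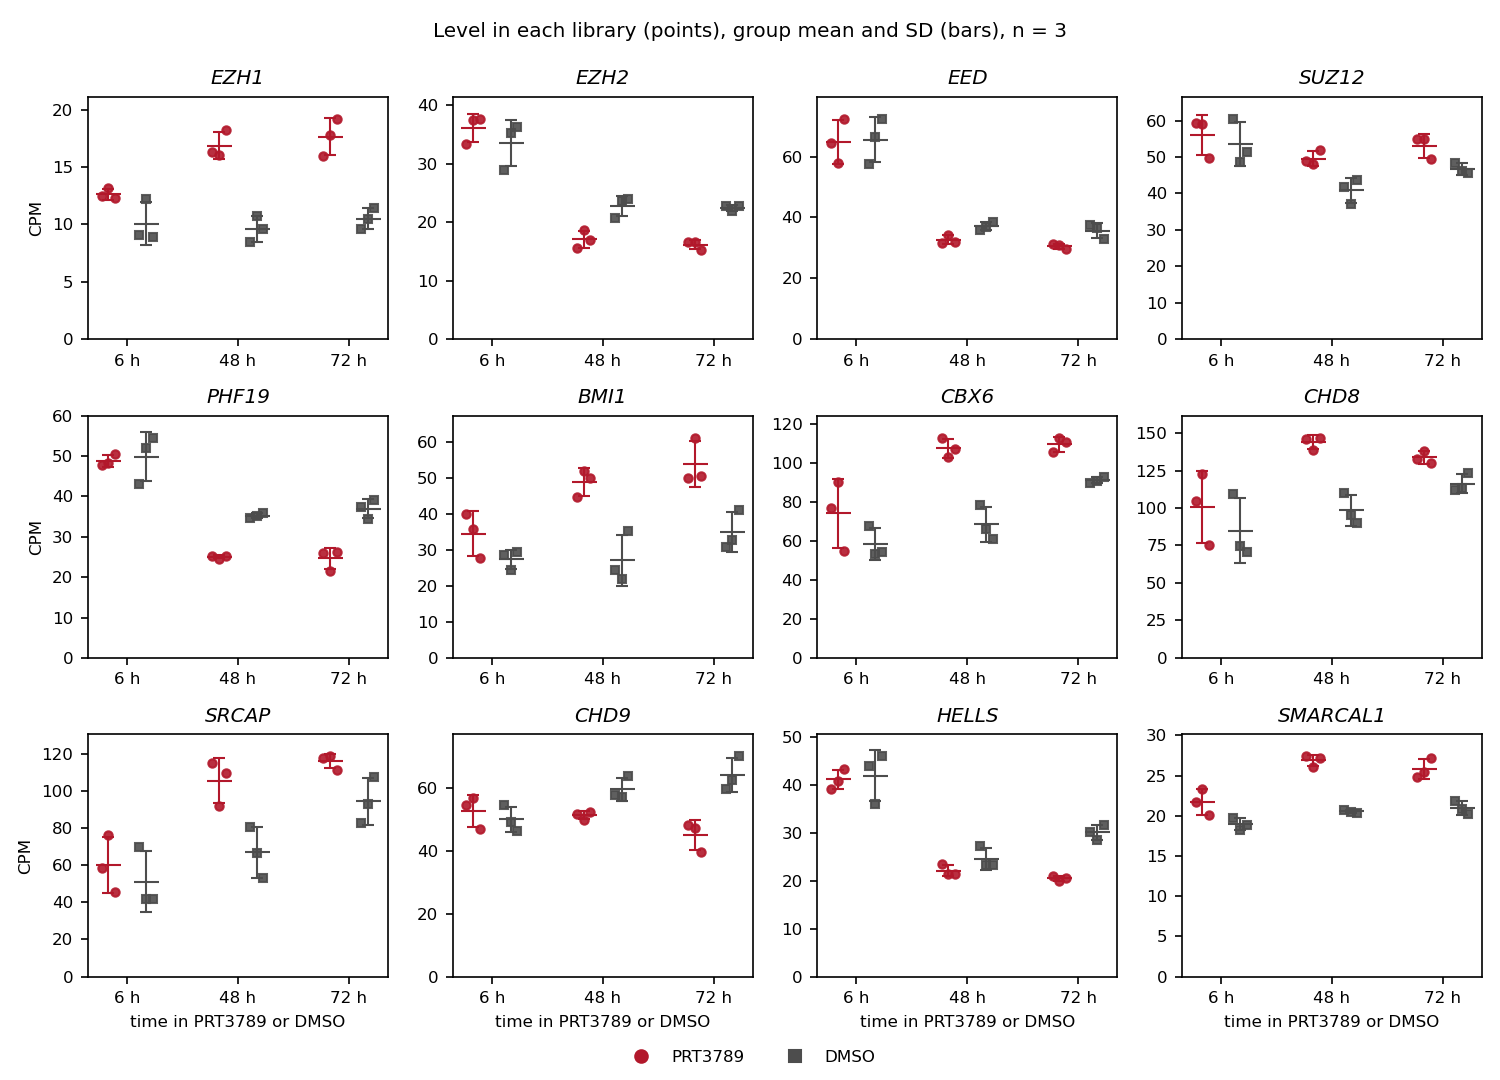
CPM of 12 members at 6, 48 and 72 h in PRT3789 (left of each pair) and DMSO, 1 point per library, with the group mean and SD as bars (n = 3), each panel on its own linear axis from 0. PRT3789 libraries lie above DMSO for EZH1 and BMI1 and below it for EZH2 and PHF19 at 48 and 72 h.

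Among the 16 ATPases, 5 rose and 0 fell at 48 h, and 1 rose and 2 fell at 72 h. That is 31.2% and 18.8% of them, beside 42.1% and 43.4% of all genes. The CHD proteins carry paired chromodomains, and CHD8 is known for its link to autism and to beta-catenin. CHD8 (chr14:21385199-21456123) had 146, 139 and 147 CPM in PRT3789 and 110, 95.1 and 90 CPM in DMSO at 48 h, and 133, 138 and 130.1 CPM against 112, 114 and 123 CPM at 72 h. The groups lay apart at both times, while at 6 h they overlapped at 105, 123 and 75.2 CPM in PRT3789 and 110, 74.5 and 70.7 CPM in DMSO. CHD8 rose by 0.55 ± 0.16 at 48 h (adjusted p = 0.00941), or by 0.36 with the length trend removed (adjusted p = 0.00048), and had 0.20 at 72 h (adjusted p = 0.322), called there with the trend removed (0.20, adjusted p = 0.029). CHD2 rose by 0.32 ± 0.09 at 48 h (adjusted p = 0.0098). With the length trend removed its log2FC was 0.11 and it was not called.

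CHD9 (chr16:53054991-53327497) moved the other way. It had 51.6, 49.9 and 52.5 CPM in PRT3789 and 57.9, 57.0 and 63.7 CPM in DMSO at 48 h, which lay apart, with a log2FC of -0.21 that was not called (adjusted p = 0.0749). At 72 h it had 48.4, 47.3 and 39.6 CPM in PRT3789 and 59.6, 62.6 and 70.0 CPM in DMSO, and fell by 0.51 ± 0.09 (1.42-fold, adjusted p = 0.000249). At 6 h the groups overlapped at 54.7, 56.7 and 46.9 CPM in PRT3789 and 54.5, 49.2 and 46.3 CPM in DMSO. With the length trend removed the 48 h value of CHD9 was -0.47 and called (adjusted p = 4.2e-05).

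CHD4, the motor of the NuRD deacetylase complex, had the highest level per length of the 40 genes in DMSO at 48 h, 50.3 CPM per kb, and 46.0 CPM per kb in PRT3789. At 72 h it had 299, 294 and 274 CPM in PRT3789 and 377, 381 and 407 CPM in DMSO, which lay apart. Its log2FC of -0.43 ± 0.18 was not called at 72 h (adjusted p = 0.0678), with a 95% interval of -0.81 to -0.04, and it was called under 10 of 30 alternatives, at -0.42 with the length trend removed (adjusted p = 0.006). CHD7 had 66.8, 62.3 and 67.7 CPM in PRT3789 and 57.7, 45.6 and 42.7 CPM in DMSO at 48 h, with an uncalled log2FC of 0.43 ± 0.17 (adjusted p = 0.0516). CHD7 was called at 48 h by DESeq2 and limma-voom, among other alternatives. CHD1, CHD3 and CHD6 were not called at any time in the edgeR fit of all libraries. With each time fitted apart, CHD1 and CHD3 were called at 48 h.

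The ISWI ATPases, which space nucleosomes, were not called. SMARCA5 had a log2FC of 0.00 ± 0.11 at 48 h, with a 95% interval of -0.22 to 0.23, and -0.18 ± 0.11 at 72 h. With the length trend removed SMARCA5 had -0.17 at 48 h and was called (adjusted p = 0.012), as it was at 72 h with -0.18 (adjusted p = 0.007). SMARCA1 had 0.15 ± 0.07 at 48 h (adjusted p = 0.0875) and 0.03 at 72 h.

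Of the INO80-type ATPases, SRCAP (chr16:30699171-30741409), which loads the histone variant H2A.Z, had 115, 91.9 and 109.5 CPM in PRT3789 and 80.7, 66.7 and 53.1 CPM in DMSO at 48 h. At 72 h it had 118, 118 and 111 CPM in PRT3789 and 82.6, 92.9 and 107 CPM in DMSO, and the groups lay apart at both times. At 6 h they overlapped at 58.4, 76.1 and 45.7 CPM in PRT3789 and 69.9, 41.8 and 41.7 CPM in DMSO. SRCAP rose by 0.66 ± 0.20 at 48 h (1.58-fold, adjusted p = 0.0155), or by 0.41 with the length trend removed (adjusted p = 0.0062), and had an uncalled 0.30 at 72 h (adjusted p = 0.256), which was called with the trend removed (0.28, adjusted p = 0.043). The 48 h call was lost without DMSO replicate 3, PRT3789 replicate 1 or PRT3789 replicate 3 of that time, and without the filter on low counts. INO80 and EP400, the motor of the TIP60 complex, were not called in the edgeR fit of all libraries. With each time fitted apart, INO80 was called at 48 h and EP400 at 72 h.

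Of the other SNF2 ATPases, HELLS (chr10:94545788-94613905), which supports DNA methylation and is made mostly in dividing cells, fell at 72 h. It had 21.0, 20.01 and 20.6 CPM in PRT3789 and 30.2, 28.5 and 31.6 CPM in DMSO, a fall of 0.55 ± 0.09 (1.46-fold, adjusted p = 8.97e-05). At 48 h it had 23.5, 21.3 and 21.5 CPM in PRT3789 and 27.2, 23.3 and 23.2 CPM in DMSO, and at 6 h 39.2, 40.8 and 43.3 CPM against 43.8, 35.9 and 45.9 CPM. The groups overlapped at both earlier times. SMARCAL1, an annealing helicase that protects stalled replication forks, rose by 0.39 ± 0.07 at 48 h (adjusted p = 0.000207) and by 0.30 ± 0.07 at 72 h (adjusted p = 0.00185). ATRX, which deposits histone H3.3 at repeats with DAXX, had 58.7, 57.4 and 60.6 CPM in PRT3789 and 48.6, 40.3 and 42.4 CPM in DMSO at 48 h. It rose by 0.43 ± 0.11 (adjusted p = 0.00355), and by 0.19 with the length trend removed (adjusted p = 0.0039), and was not called at 72 h.

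**Figure D3:**
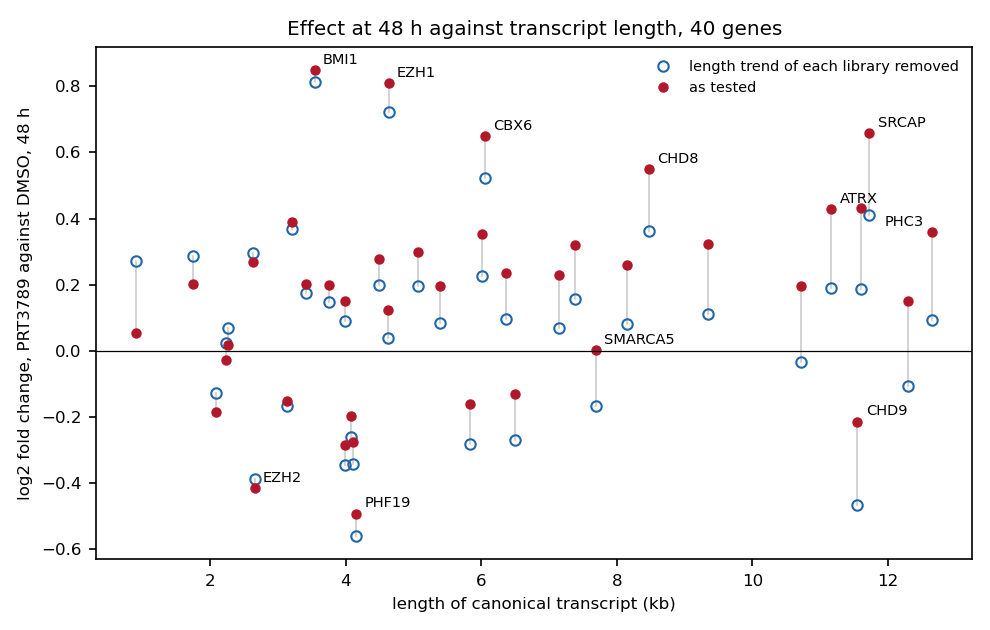
Log2FC of PRT3789 over DMSO at 48 h for the 40 members against transcript length in kb, as measured and with the length trend of the libraries removed. CHD2, PHC3 and ATRX, at 0.32, 0.36 and 0.43 as measured, lie at 0.11, 0.09 and 0.19 after removal.

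The effect of PRT3789 differed between 6 and 48 h for 5 members by a test of the difference itself, 1 with a higher and 4 with a lower effect at 48 h. That is 12.5% of the 40, beside 19.2% of all genes (8.83% higher and 10.4% lower). The log2FC at 48 h was below that at 6 h by 0.53 ± 0.13 for EZH2 (adjusted p = 0.00869), 0.46 ± 0.13 for PHF19 (adjusted p = 0.0145), 0.66 ± 0.19 for CBX7 (adjusted p = 0.0185) and 0.30 ± 0.09 for PHC2 (adjusted p = 0.0297). CBX7 lay above DMSO in every PRT3789 library at 6 h, whereas at 48 h the groups overlapped, with 4.56 to 5.17 CPM in PRT3789 and 5.07 to 6.74 CPM in DMSO. It was called at neither time. For PCGF3 the log2FC was higher at 48 h by 0.25 ± 0.07 (adjusted p = 0.0224). The call of PHC2 was lost without PRT3789 replicate 3 of 6 h or PRT3789 replicate 1 or 2 of 48 h. That of PCGF3 was lost without DMSO replicate 2 or 3 or PRT3789 replicate 1 of 6 h, and without PRT3789 replicate 1 or 3 of 48 h. It was lost as well with the length trend removed and without the filter on low counts.

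Between 48 and 72 h no member's effect changed by that test, and 0.00% of all genes were called. An unadjusted p under 0.05 was found for 4 members and 1476 genes, and DESeq2 called 103 genes and limma-voom 0. The log2FC was lower at 72 h for 35 of the 40 members and for all 16 ATPases, with a median change of -0.31 over the ATPases and -0.01 over all genes. Of the 16291 tested genes, 7961 had a higher log2FC at 72 h. The part of transcript length in the shift of the ATPases as a set was not tested. With the length trend removed, the change was -0.16 instead of -0.35 for CHD8, -0.13 instead of -0.36 for SRCAP and -0.06 instead of -0.29 for CHD9, but -0.40 in both fits for HELLS.

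In DMSO alone, 9 members were higher and 7 lower at 48 h than at 6 h, 40% of the members beside 37.2% of all genes (17.1% higher and 20.1% lower). EED (log2FC -0.82), PCGF6 (-0.82), HELLS (-0.77), EZH2 (-0.56), PHF19 (-0.50), SUZ12 (-0.39) and MTF2 (-0.37) fell, and 22 of 23 proliferation genes fell with them (median -0.87). CHD7 (0.63), CHD6 (0.54), PHC1 (0.50), ATRX (0.46), CHD2 (0.38), SMARCA1 (0.34), RING1 (0.33), CHD9 (0.25) and PHC2 (0.23) rose. Without DMSO replicate 1 of 6 h, 19 members were higher. EZH2, PHF19, MTF2 and HELLS were thus lower at 48 h than at 6 h in DMSO, and lower again in PRT3789 than in DMSO at 72 h. From 48 to 72 h in DMSO 0 members and 0.540% of all genes were called by edgeR (0.387% higher and 0.153% lower). An unadjusted p under 0.05 was found for 10 of the 40 members, beside 3221 of the 16291 tested genes.

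The partners of these proteins were read from lists, whose counts stand against the 42.1% of all genes called at 48 h and 43.4% at 72 h. Polycomb partners were called in 32.1% and 46.4% of cases, erasers in 50% and 21.4%, NuRD partners in 50% and 41.7%, and ISWI partners in 33.3% and 22.2%. Partners of INO80, SRCAP and TIP60 were called in 46.9% and 37.5%, those of ATRX and HELLS in 77.8% at both times, further SNF2 ATPases in 35.7% and 57.1%, and HOX genes in 34.4% and 37.5%. Of 28 tested polycomb partners, 6 rose and 3 fell at 48 h, and 5 rose and 8 fell at 72 h. They included AUTS2, a subunit of a variant PRC1, which fell by 1.49 ± 0.25 at 48 h (adjusted p = 0.000101) and by 2.40 ± 0.26 at 72 h (adjusted p = 6.44e-07), and EPOP, a PRC2 cofactor, which rose by 0.62 and 0.60. Of 14 erasers of polycomb marks, 7 rose and 0 fell at 48 h, and 2 rose and 1 fell at 72 h. ASXL1, a cofactor of the H2A deubiquitinase BAP1, rose by 0.64 ± 0.08 and 0.35 ± 0.08, and KDM6B, a demethylase of H3 lysine 27, by 0.60 ± 0.17 at 48 h (adjusted p = 0.0105).

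Of 12 NuRD partners, 4 rose and 2 fell at 48 h and 3 rose and 2 fell at 72 h. The paired deacetylases moved apart: HDAC2 rose by 0.69 ± 0.07 and 0.81 ± 0.07, and HDAC1 fell by 0.36 ± 0.06 at 72 h (adjusted p = 7.94e-05). Of 9 ISWI partners, 1 rose and 2 fell at 48 h and 0 rose and 2 fell at 72 h, with BPTF, the large NURF subunit, at 0.60 ± 0.13 at 48 h and POLE3 at -0.49 and -0.39. Of 32 partners of INO80, SRCAP and TIP60, 4 rose and 11 fell at 48 h, and 3 rose and 9 fell at 72 h. RUVBL2, a helicase shared by these complexes, fell by 0.62 ± 0.06 and 0.54 ± 0.06, and H2AZ2, a gene for the H2A.Z that SRCAP loads, fell by 0.62 and 0.71.

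Of 9 partners of ATRX and HELLS, 3 rose and 4 fell at both times. DAXX rose by 0.31 ± 0.06 at 6 h (adjusted p = 0.00556) and 0.28 ± 0.06 at 48 h, DNMT3A rose by 0.75 ± 0.10 at 48 h, and CDCA7, which activates HELLS, fell by 0.66 ± 0.10 at 72 h. Of 14 further SNF2 ATPases, 3 rose and 2 fell at 48 h, and 2 rose and 6 fell at 72 h, RAD54L, a recombination factor, falling by 0.63 and 0.84. The HOX genes, textbook polycomb targets, did not move one way: of 32 tested, 4 rose and 7 fell at 48 h and 4 rose and 8 fell at 72 h. HOXC12 fell by 0.99 ± 0.09 and 1.08 ± 0.09, and HOXC8 rose by 0.88 ± 0.09 and 0.91 ± 0.09, at 48 and 72 h. Both were called in the same directions at 6 h, HOXC12 with -0.46 and HOXC8 with 0.41.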

How the data were processed

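RNA of 18 libraries was enriched with oligo(dT) and sequenced from stranded libraries, per the labels' protocols. The authors deposited expected counts per gene, made with Trim Galore, STAR and RSEM on GRCh38, per the submitters' processing notes. The values were already whole, so rounding changed nothing.

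After filterByExpr and TMM scaling, 1 robust quasi-likelihood model of edgeR 4.0.16 (R 4.3.3), holding 6 group means, gave two-sided F tests. These compared PRT3789 with DMSO at 6, 48 and 72 h, that effect between successive times, and DMSO between successive times. CPM are TMM-scaled. The pooled spread can make p at 6 h too small. Transcript lengths are those of GENCODE v44, and promoters are RefSeq windows.

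Values in every library are given for the PRC2 core and for members called with a log2FC of at least 0.5 in size; of each further list, up to 3 called genes per time by smallest p could be named. Members and lists were chosen with earlier results of these data known. Same-numbered libraries of a time were not treated as pairs in the main model. Across genes, their deviations correlated between -0.604 and 0.873, which cannot settle whether they were pairs. Alternatives were other scalings, filters and tools (DESeq2 1.42.0, limma 3.58.1), a replicate block and a lowess length correction (span 0.3). Others were each time fitted apart, with or without that correction, the 6 h libraries left out, and each library left out. An adjusted p under 0.01 was also applied, but is not among the 30 or 27 alternatives counted for single genes.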

Additional observations from a re-analysis of the deposited data

Results flagged for a closer look

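The effect of PRT3789 at 48 h differed from that at 6 h, by the test of the difference, for EZH2 (change of log2FC -0.53), PHF19 (-0.46), CBX7 (-0.66), PHC2 (-0.30) and PCGF3 (0.25). For EZH2 and PHF19 the same tests in DMSO alone also gave lower levels at 48 h than at 6 h, by 0.56 and 0.50. For CBX7 the library values were low, 4.48 to 7.34 CPM over the 4 groups compared.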

How the results depend on the processing

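At 48 h 10 of the 17 called members (EZH1, EZH2, PHF19, BMI1, PCGF3, CBX6, PHC2, CHD8, SMARCAL1 and ATRX) kept their call under all 30 alternatives, and at 72 h 10 of the 13 (EZH1, EZH2, PHF19, MTF2, BMI1, PCGF3, PHC2, CHD9, SMARCAL1 and HELLS). For the change from 6 to 48 h, EZH2, PHF19 and CBX7 kept it under all 27. The 30 and the 27 leave out the stricter threshold of 0.01. For that change, PHF19 (edgeR adjusted p = 0.0145) and CBX7 (0.0185) did not pass it. Of called values, 1 lay across 0 from the reported one: SMARCA5 at 48 h had -0.17 with the length trend removed, and -0.17 with each time also fitted apart. Removing the trend gave 1 member higher at 6 h, 7 lower at 48 h (8 with each time apart) and 11 higher at 72 h. Fitting each time apart gave 11 members higher and 12 lower at 72 h, with or without the trend (11 and 12). Without the 6 h libraries, added after the data were seen, 20 members were higher at 48 h, 10 at 72 h, and 11 from 48 to 72 h in DMSO. An adjusted p under 0.01 left 8 members higher at 48 h, 0 higher and 1 lower for the change from 6 to 48 h, and 5 higher in DMSO from 6 to 48 h. Total counts gave 1 member higher at 6 h and moved the share of higher calls among all genes there to 44.3%, from 29.6%. No filter gave 0 members higher for the change from 6 to 48 h. Whether the replicate numbers mark pairs is not known. With a replicate block within each time, 14 members were higher and 4 lower at 48 h, and 6 and 9 at 72 h, and 4 were higher in DMSO from 6 to 48 h; a block over all groups gave 2 higher for the change from 6 to 48 h.

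Over all genes, the 705 called at 6 h became 1076 with the trend removed, 147 with the time apart, 406 with both and 380 at an adjusted p under 0.01. The change from 6 to 48 h called 1805 at 0.01. The change from 48 to 72 h called 3 with no filter, 103 in DESeq2, 2 with the block within time, 54 with the trend removed and 294 without the 6 h libraries. DMSO from 6 to 48 h called 3448 with the block within time and 3848 at 0.01. DMSO from 48 to 72 h called 554 in DESeq2, 13 with the block within time, 301 with the trend removed, 3035 without the 6 h libraries and 19 at 0.01. The causes were not tested.

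Leaving out each library gave 0 to 1 members higher at 6 h, 8 to 18 higher and 3 to 5 lower at 48 h, 5 to 7 higher and 6 to 9 lower at 72 h, 0 to 3 higher and 3 to 5 lower for the change from 6 to 48 h, and 6 to 19 higher and 7 to 8 lower in DMSO from 6 to 48 h. Over all genes it gave 476 to 1083 at 6 h, 5626 to 7652 at 48 h, 6176 to 7732 at 72 h, 2475 to 3251 for the change from 6 to 48 h, 0 to 8 for that from 48 to 72 h, 4534 to 7305 in DMSO from 6 to 48 h and 19 to 555 from 48 to 72 h. The 18 at 48 h, and the highest counts of the DMSO comparisons, came without DMSO replicate 1 of 6 h. Depth limits the low members most: CBX7 had as few as 108 counts in a library and EZH1 188.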
